A study of Rattus norvegicus with 12 samples.

Results

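The endothelial and angiogenic genes described here are 10 rat genes, taken by symbol from the rows of the deposited count table. They are Cdh5, Pecam1 and Vwf, which mark blood vessel endothelium; the receptors Tek, Tie1, Kdr and Flt1; the growth factors Vegfa and Vegfb; and Apold1, an early response gene of endothelial cells. Each had a single row among the 24648 rows, and all 10 were among the 14225 genes that passed the filter on low counts. RNA was sequenced from skeletal muscle of male rats aged 540 days, and the dams' diet was the factor studied. The restriction group was born to dams on a diet with 6% protein through gestation and lactation, and the control group to control dams. The 4 groups of 3 libraries were restriction set 2 (title numbers 32, 33 and 35), control set 2 (23, 28 and 29), restriction set 1 (12, 13 and 15) and control set 1 (3, 8 and 9). The series text names soleus and extensor digitorum longus, but the labels used here tie no muscle to a library, so the sets carry their numbers.

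Neither strain, dam nor litter is given in the sources used here. Libraries of a group may come from littermates, a library of each set may come from the same rat, and the p-values measure only the spread between these libraries. Library totals ran from 22829692 to 38313704 counts, and the 10 genes together held 0.0582% to 0.0912% of them. In set 2 the slow myosin Myh7 lay between 702 and 2590 CPM (counts scaled to depth, with TMM factors), against 31200 to 38300 CPM in set 1. For the fast myosin Myh4 the ranges were 11000 to 47500 CPM in set 2 and 4.97 to 396 CPM in set 1, with 396 CPM in control 3. Control 23 stood apart from the rest at 88 on the second principal component, where the others lay between -23.7 and 19.6. Its TMM factor was 0.8153, against 0.9683 to 1.1 in the others, and results that rest on it are given with and without it.

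Capillary endothelium lines the vessels that run along every muscle fibre. Its cells are held together by VE-cadherin, the product of Cdh5, and by Pecam1. Vegfa, which muscle fibres release, acts mainly through the tyrosine kinase Kdr (VEGFR2), while Flt1 (VEGFR1) binds both Vegfa and Vegfb and can act as a decoy. Tek (Tie2) is the angiopoietin receptor that keeps vessels stable, and Tie1 is its partner with no high-affinity ligand of its own. Slow oxidative muscle is known for dense capillaries and fast glycolytic muscle for sparser ones. In whole muscle, fewer endothelial cells and less RNA per endothelial cell cannot be told apart.

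RefSeq promoter windows of the rat assembly GRCr8, which differs from the build Rnor_6.0 named for the counts, were matched for 6 of the 10 genes, namely Kdr, Flt1, Tie1, Vegfa, Vegfb and Apold1. Of these, 4 windows are printed, the 250 bases before the start of Kdr (chr14:32571813-32572062), Flt1 (chr12:12333180-12333429), Vegfa (chr9:22452604-22452853) and Apold1 (chr4:169552349-169552598), all on the plus strand. They are shown because the first 3 genes were higher in set 2, and Apold1 had the largest diet difference of the 10. Capitals mark matches on either strand to CAGGAA or CCGGAA (ETS), AACAAT (SOX), ACGTG (core of the hypoxia response element) or GGGCGG (SP/KLF), and no 2 of these matches overlap in the windows shown.
Kdr: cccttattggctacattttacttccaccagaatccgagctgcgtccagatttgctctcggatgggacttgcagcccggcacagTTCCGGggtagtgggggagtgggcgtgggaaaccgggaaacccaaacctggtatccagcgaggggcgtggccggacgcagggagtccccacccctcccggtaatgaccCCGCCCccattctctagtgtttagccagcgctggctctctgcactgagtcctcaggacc
Flt1: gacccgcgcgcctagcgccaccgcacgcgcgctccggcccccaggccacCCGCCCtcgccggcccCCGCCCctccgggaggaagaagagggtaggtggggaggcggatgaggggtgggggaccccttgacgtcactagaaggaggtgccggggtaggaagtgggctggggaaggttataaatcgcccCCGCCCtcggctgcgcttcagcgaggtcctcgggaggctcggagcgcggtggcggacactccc
Vegfa: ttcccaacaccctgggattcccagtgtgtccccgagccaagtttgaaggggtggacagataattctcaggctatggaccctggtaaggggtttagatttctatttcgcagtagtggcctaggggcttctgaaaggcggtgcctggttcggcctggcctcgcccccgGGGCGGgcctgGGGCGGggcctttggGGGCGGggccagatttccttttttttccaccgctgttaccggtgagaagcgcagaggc
Apold1: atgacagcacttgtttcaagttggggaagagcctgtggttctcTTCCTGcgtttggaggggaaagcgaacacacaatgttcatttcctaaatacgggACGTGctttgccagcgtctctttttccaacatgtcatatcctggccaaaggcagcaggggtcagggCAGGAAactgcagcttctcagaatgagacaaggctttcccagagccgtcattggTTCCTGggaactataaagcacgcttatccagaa
GGGCGG occurred 3 times in the Flt1 window, 3 times in the Vegfa window and 1 time in the Kdr window, and 30.5% of all 33469 promoter windows held it. It also occurred 4 times in the window of Vegfb and 1 time in that of Tie1, which are not printed. Neither Vegfb nor Tie1 was called between the sets. The Kdr window also held 1 CCGGAA, present in 12.6% of windows. The Apold1 window held no GGGCGG but had 3 CAGGAA, a word found in 24.7% of windows, and 1 ACGTG, found in 16.6%. Vegfa had a second promoter window (chr9:22460028-22460277), not printed, in which none of these motifs occurred. All of these matches describe letters only, and nothing here measured binding.

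Setting set 2 against set 1 over both diets asked whether vascular transcripts differed between the 2 muscle sets. Of the 10 genes, 5 were higher in set 2 (Cdh5, Tek, Kdr, Flt1 and Vegfa), 1 was lower (Vwf) and 4 did not pass the test, in edgeR's quasi-likelihood test with Benjamini-Hochberg adjustment over all genes and a threshold of 0.05. That test called 39.5% of all genes, 19.9% higher and 19.6% lower. The median log2 fold change was 0.41 over the 10 genes and -0.01 over all genes. With library size alone as the scaling the median of all genes lay 0.11 lower (a shift of -0.11), and the split of calls over all genes became 2102 higher and 3384 lower, against 2832 higher and 2788 lower with TMM.

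Among the endothelial markers, VE-cadherin and the other vessel markers went different ways. Cdh5 measured 53.3, 69.4 and 72.1 CPM in set 2 restriction libraries and 43.1, 66.4 and 56.9 CPM in the controls of set 2. In set 1 it measured 32.1, 21.3 and 26.2 CPM in restriction libraries and 22.7, 33.8 and 20.4 CPM in controls. Every set 2 library thus lay above every set 1 library, a separation in this direction that 8.97% of all genes showed. The log2 fold change of Cdh5 was 1.20 ± 0.16 (SE; 95% interval 0.86 to 1.55; adjusted p = 4.7e-05), a 2.3-fold higher level in set 2.

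Pecam1, the adhesion molecule at endothelial junctions, measured 60.8, 59.4 and 81.7 CPM in set 2 restriction libraries, 89.5, 95.5 and 79.9 CPM in the controls of set 2, 84.1, 72.2 and 70.2 CPM in set 1 restriction libraries and 53.8, 83.3 and 64.7 CPM in the controls of set 1. The sets overlapped through most of their ranges. Its log2 fold change of 0.11 ± 0.13 did not pass the test (95% interval -0.16 to 0.39; adjusted p = 0.51). Vwf encodes the clotting glycoprotein stored in endothelial granules. It measured 52.5, 51.3 and 73.2 CPM in set 2 restriction libraries, 77.9, 58.2 and 44.6 CPM in the controls of set 2, 115, 86 and 88.3 CPM in set 1 restriction libraries and 71.7, 99.6 and 77.8 CPM in the controls of set 1. Only the upper end of set 2 reached into the range of set 1, and the log2 fold change was -0.59 ± 0.16 (adjusted p = 0.008). Cdh5 and Vwf were called in each of 12 fits that left out 1 library.

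**Figure D1:**
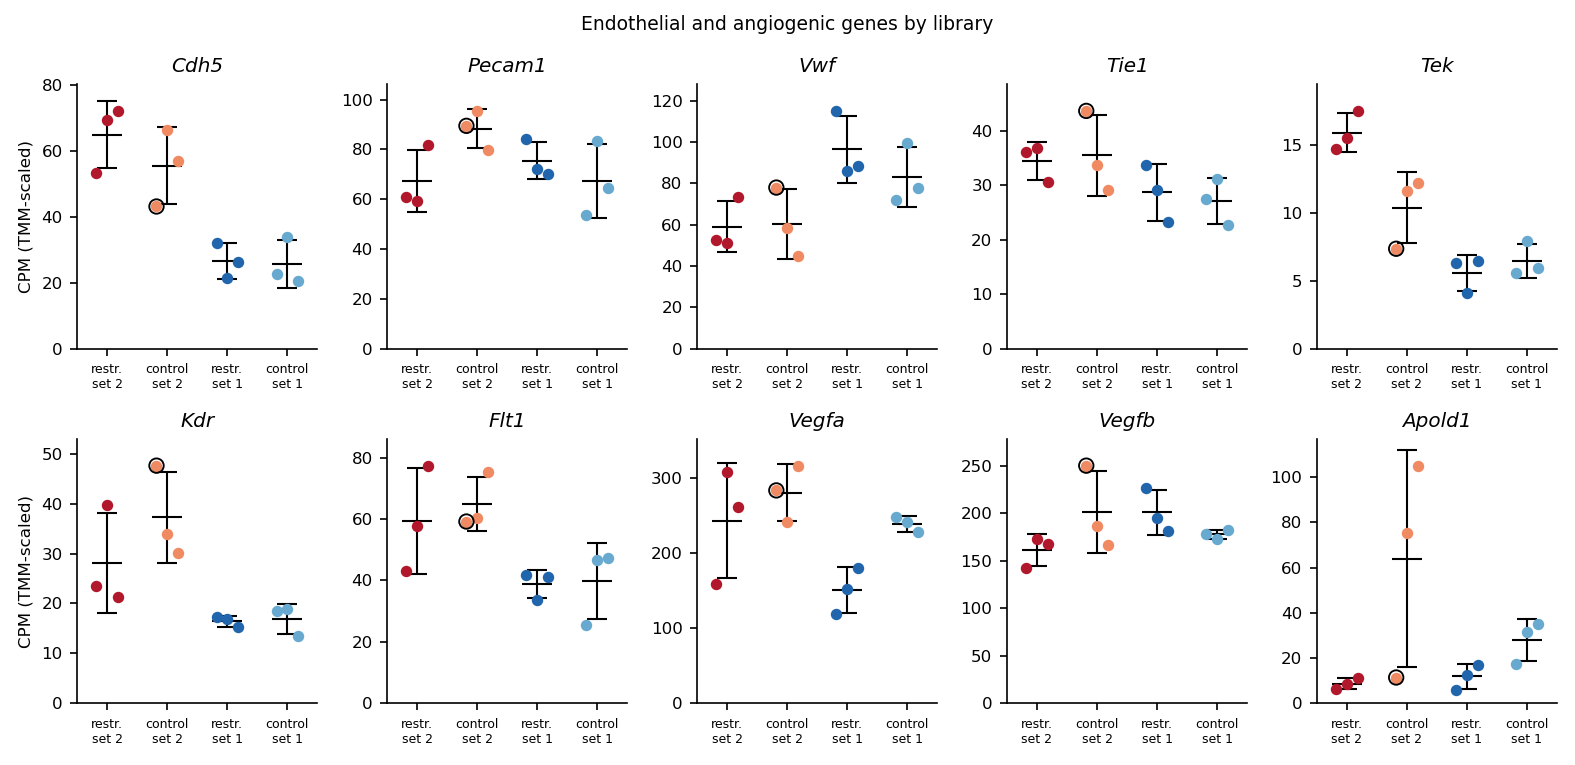
CPM (TMM-scaled) of the 10 genes in each library, 1 panel per gene with its own vertical axis from 0, with points for libraries, long bars for the mean and whiskers for SD (n = 3), and control 23 circled. Cdh5 lies between 43.1 and 72.1 CPM in set 2 and between 20.4 and 33.8 CPM in set 1, while Pecam1 overlaps between the sets and Apold1 spreads from 11.4 to 105 CPM in the controls of set 2.

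Of the receptors, Tek, Kdr and Flt1 were higher in set 2, while Tie1 did not pass the test. Tek measured 14.7, 15.5 and 17.5 CPM in set 2 restriction libraries, 7.35, 11.6 and 12.2 CPM in the controls of set 2, 6.27, 4.07 and 6.43 CPM in set 1 restriction libraries and 5.54, 7.9 and 5.95 CPM in the controls of set 1. Control 23, at 7.35 CPM, was the only set 2 library below the highest set 1 library. The log2 fold change of Tek was 1.10 ± 0.18 (adjusted p = 0.00023). Tie1 averaged 34.9 ± 5.21 CPM in set 2 and 27.8 ± 4.36 CPM in set 1 (SD, n = 6 each), ranging from 29 to 43.6 CPM and from 22.6 to 33.7 CPM. The highest Tie1 value was in control 23, the library with the lowest Tek value of set 2. The log2 fold change of Tie1, 0.33 ± 0.14, missed the threshold (95% interval 0.04 to 0.62; adjusted p = 0.07).

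Kdr, the main signalling receptor for Vegfa, measured 23.4, 39.7 and 21.3 CPM in set 2 restriction libraries, 47.6, 34 and 30.2 CPM in the controls of set 2, 17.3, 16.8 and 15.2 CPM in set 1 restriction libraries and 18.5, 18.8 and 13.4 CPM in the controls of set 1. The sets did not overlap, a separation seen in this direction for 8.97% of all genes. Its spread was wide in set 2 (32.7 ± 9.94 CPM) and narrow in set 1 (16.7 ± 2.05 CPM; SD, n = 6 each), and the log2 fold change was 0.96 ± 0.17 (adjusted p = 0.00054). Flt1 measured 43, 57.7 and 77.4 CPM in set 2 restriction libraries, 59.2, 60.5 and 75.2 CPM in the controls of set 2, 41.7, 33.6 and 41.3 CPM in set 1 restriction libraries and 25.4, 46.8 and 47.2 CPM in the controls of set 1. The sets overlapped between 43 and 47.2 CPM, and the log2 fold change was 0.66 ± 0.17 (adjusted p = 0.0077). Tek, Kdr and Flt1 were called in each of the 12 fits that left out 1 library. RefSeq places 3 other transcribed loci over Flt1, 1 over Tie1 and 1 over Apold1, whose strands were not compared here. The library kit does not mark strand, so reads of any antisense partner at these genes cannot be told apart.

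The ligands differed from each other. Vegfa measured 159, 309 and 262 CPM in set 2 restriction libraries, 284, 242 and 317 CPM in the controls of set 2, 119, 153 and 180 CPM in set 1 restriction libraries and 248, 242 and 228 CPM in the controls of set 1. Set 1 controls lay within the range of set 2, and the set 1 restriction libraries reached lower. The log2 fold change between the sets was 0.46 ± 0.16 (adjusted p = 0.03), but this call was lost with library size alone as the scaling (0.35, adjusted p = 0.12). It was also lost on leaving out control 8 (0.47), control 9 (0.45), restriction 12 (0.39), restriction 13 (0.48), control 29 (0.42), restriction 33 (0.36) or restriction 35 (0.44), with an adjusted p from 0.05 to 0.086. Vegfb, a relative of Vegfa that binds Flt1 but not Kdr, ranged from 142 to 250 CPM in set 2 and from 173 to 227 CPM in set 1. Its log2 fold change was -0.07 ± 0.12 (95% interval -0.32 to 0.18; adjusted p = 0.67). Apold1 did not pass this test either, at 0.37 ± 0.40 (95% interval -0.49 to 1.23; adjusted p = 0.49).

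**Figure D2:**
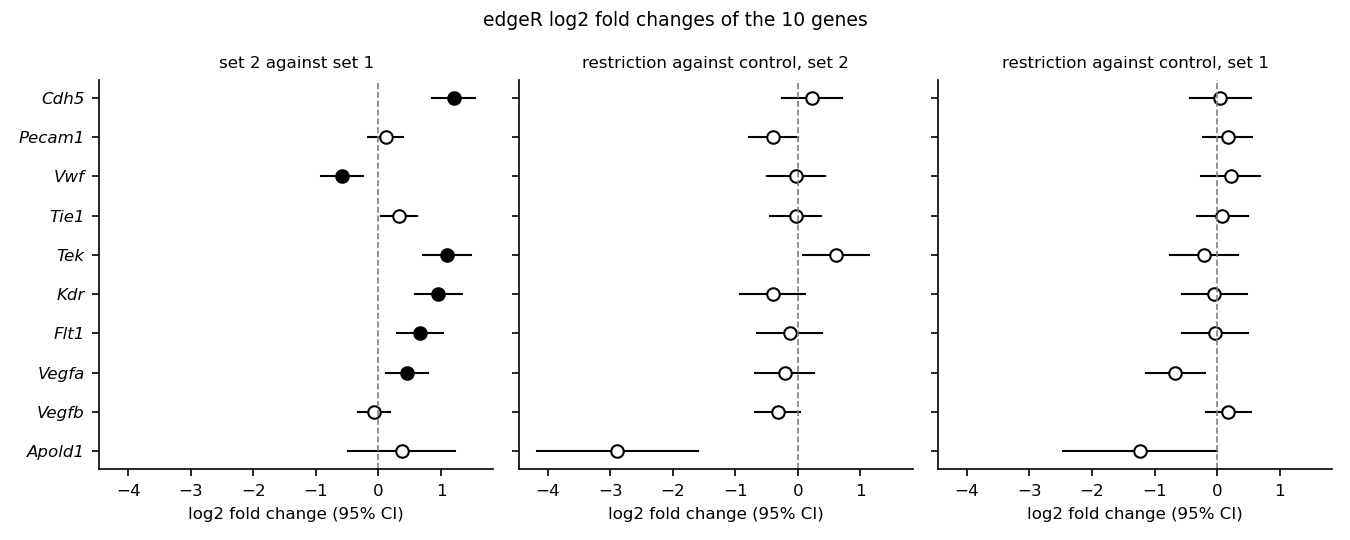
edgeR log2 fold changes of the 10 genes with 95% intervals, for set 2 against set 1 (left), restriction against control in set 2 (middle) and in set 1 (right), on a shared horizontal axis; filled points have an adjusted p under 0.05. Filled points appear in the left panel only, where Cdh5 is at 1.20 and Vwf at -0.59, and in the middle panel Apold1 lies at -2.88 with an open point.

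Ratios of counts within a library remove any scaling between libraries, and 6 ratios were compared between the sets. The log2 ratio of Cdh5 to Pecam1 was -0.19, 0.23 and -0.18 in set 2 restriction libraries and -1.05, -0.53 and -0.49 in set 2 controls. In set 1 it was -1.39, -1.76 and -1.42 in restriction libraries and -1.25, -1.30 and -1.66 in controls. No set 2 library fell to the level of set 1, although control 23 came close. The difference was 1.10 on the log2 scale, with an exact two-sided permutation p = 0.005, the smallest that 400 arrangements allow, and an adjusted p = 0.03 over the 6 ratios. Leaving out control 3, 8 or 9 gave 1.14, 1.12 and 1.03 with an adjusted p = 0.06 each, in a design with fewer arrangements. With libraries matched by title number, sign flips over 6 pairs left no ratio with an adjusted p under 0.05. The smallest p of that test is 0.031, and its results are given in the last section. Tek to Tie1 differed by 0.77 (exact permutation p = 0.04; adjusted p = 0.12), and by 0.96 without control 23 (adjusted p = 0.015 by the same exact permutation test). The other 4 ratios had an adjusted p from 0.14 to 0.38, and Vegfa to Vegfb, at 0.52, was called without control 23 (0.60; exact permutation, adjusted p = 0.04).

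**Figure D3:**
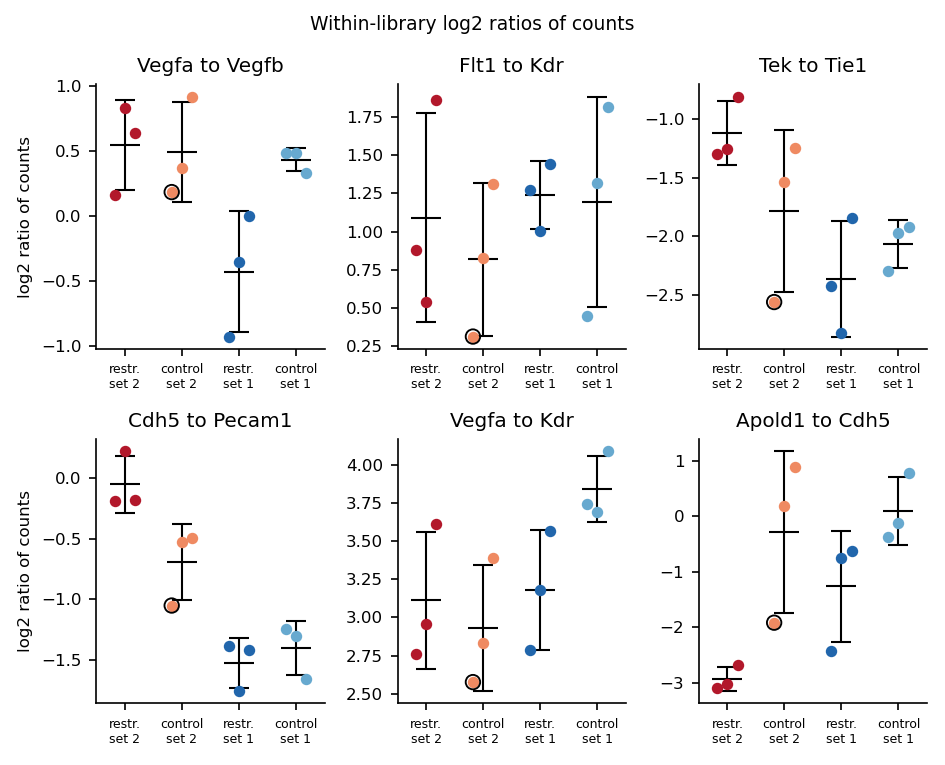
Log2 ratios of counts of 2 genes within each library for 6 gene pairs, by group, with points for libraries, long bars for the mean, whiskers for SD (n = 3) and control 23 circled; vertical axes differ between panels. Cdh5 to Pecam1 lies between -1.05 and 0.23 in set 2 and between -1.76 and -1.25 in set 1, and Apold1 to Cdh5 is lowest in set 2 restriction libraries, at -3.09 to -2.68.

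Other genes of vessels were read from lists, each given by its counts beside the 19.9% of all genes called higher and the 19.6% called lower. Of 28 endothelial identity genes, 10 were higher in set 2, 2 were lower and 16 did not pass, with a median log2 fold change of 0.27. Podxl, a sialomucin of the luminal surface, was at 0.64 ± 0.10 (SE; adjusted p = 0.00022), and the endothelial adhesion receptor Adgrf5 at 0.84 ± 0.16 (adjusted p = 0.00081). The ETS transcription factor Erg, which maintains endothelial identity, was at 0.64 ± 0.13 (adjusted p = 0.0018). In the other direction, Plvap, the protein of the diaphragms of fenestrae and caveolae, was at -1.17 ± 0.20 (adjusted p = 4e-04), averaging 26 and 18.1 CPM in set 2 restriction and control libraries and 50.1 and 47.6 CPM in those of set 1. Without control 23 the list had 11 higher and 3 lower, and with library size alone 8 higher and 3 lower.

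Among 15 tested angiogenic ligands 2 were higher in set 2 and 3 lower. The lower ones were Fgf1 (-2.76 ± 0.23, adjusted p = 6.3e-07), Figf, the older symbol of Vegfd (-2.94 ± 0.32, adjusted p = 7.6e-06), and the semaphorin Sema3f (-1.0 ± 0.12, adjusted p = 1.4e-05). Figf averaged 1.08 and 0.661 CPM in set 2 restriction and control libraries, against 4.92 and 8.34 CPM in those of set 1. Pdgfb, by which endothelium recruits pericytes, was higher (1.01 ± 0.17, adjusted p = 0.00026). The ligands' median of 0.15 turned to -0.12 without control 23. Of 17 receptors and Notch genes 5 were higher and 2 lower, with a median of 0.25. Nrp1, the Vegfa co-receptor, was higher by 0.78 ± 0.14 (adjusted p = 0.00052), Flt4, the receptor of Vegfc and Vegfd, by 1.70 ± 0.36 (adjusted p = 0.0017) and the Notch ligand Dll4 by 0.87 ± 0.19 (adjusted p = 0.0024). Hey2, a Notch target gene, was lower at -1.84 ± 0.35 (adjusted p = 0.00084). Of these receptors and Notch genes 3 were lower without control 23, and with library size alone 4 were higher and 3 lower. The counts over all genes for such fits are given above.

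The list of 11 regulators of Vegfa transcription had 5 higher and 1 lower, with a median of 0.35. Epas1, the hypoxia-inducible factor HIF-2α, averaged 194 and 160 CPM in set 2 restriction and control libraries and 43.4 and 55.7 CPM in those of set 1. Its log2 fold change was 1.84 ± 0.29 (adjusted p = 0.00021), and its partner Arnt was at 0.74 ± 0.17 (adjusted p = 0.0029). The coactivator Ppargc1b was higher by 1.10 ± 0.26 (adjusted p = 0.0037), while the orphan receptor Esrrg, known for its level in oxidative muscle, was at -1.62 ± 0.25 (adjusted p = 0.00015). All 4 are also expressed by muscle fibres, so these values are not of endothelium alone.

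Of the cells around the capillary, 8 pericyte genes had 4 higher and 1 lower, with a median of 0.49. Rgs5 was at 1.62 ± 0.24 (adjusted p = 0.00012), Mcam at 0.65 ± 0.15 (adjusted p = 0.0031), Abcc9 at 0.64 ± 0.14 (adjusted p = 0.0022) and Cspg4 at -1.40 ± 0.17 (adjusted p = 1.7e-05). The 7 vascular smooth muscle genes had 1 higher, Lmod1 at 2.76 ± 0.20 (adjusted p = 1.7e-07), and 5 lower, among them the contractile proteins Tagln (-0.85 ± 0.19, adjusted p = 0.0025) and Cnn1 (-1.07 ± 0.23, adjusted p = 0.002). Des (-0.61 ± 0.12, adjusted p = 9e-04) is in that list but is also made by muscle fibres. The 6 lymphatic endothelial genes had 4 lower and 1 higher, with Prox1 at -3.95 ± 0.21 (adjusted p = 9.1e-09), Ccl21 at -1.73 ± 0.25 (adjusted p = 9.6e-05), Lyve1 at -2.13 ± 0.38 (adjusted p = 0.00051), Pdpn at -1.64 ± 0.31 (adjusted p = 0.00069) and Flt4, counted above, as the higher one. Prox1 is also known in slow muscle fibres and Lyve1 in macrophages. The calls for the genes named from these lists were kept in each of the 12 fits that left out 1 library.

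Markers of other cells moved with the sets. All 10 macrophage genes were lower in set 2, with sums of 64.5 to 121 CPM in restriction and 65 to 135 CPM in control libraries of set 2, against 234 to 571 CPM and 242 to 430 CPM in those of set 1. All 7 tested fibroblast genes and 6 of 7 adipocyte genes were lower too, with medians of -1.35 and -2.83. Fibroblast sums were 302 to 363 CPM in restriction and 269 to 376 CPM in control libraries of set 2, against 490 to 780 CPM and 479 to 896 CPM in those of set 1. For adipocyte genes they were 143 to 208 CPM and 153 to 271 CPM in set 2, against 251 to 318 CPM and 305 to 437 CPM in set 1, in the same order of diets. No macrophage gene was at 0 in any library. Of 5 tested red blood cell genes edgeR called 0, with 1 at an unadjusted p under 0.05, as had 6791 of all 14225 genes. DESeq2 called 1 of the 5 (Slc4a1, higher) and limma-voom 0. The part of these cells in the vascular differences was not tested.

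**Figure D4:**
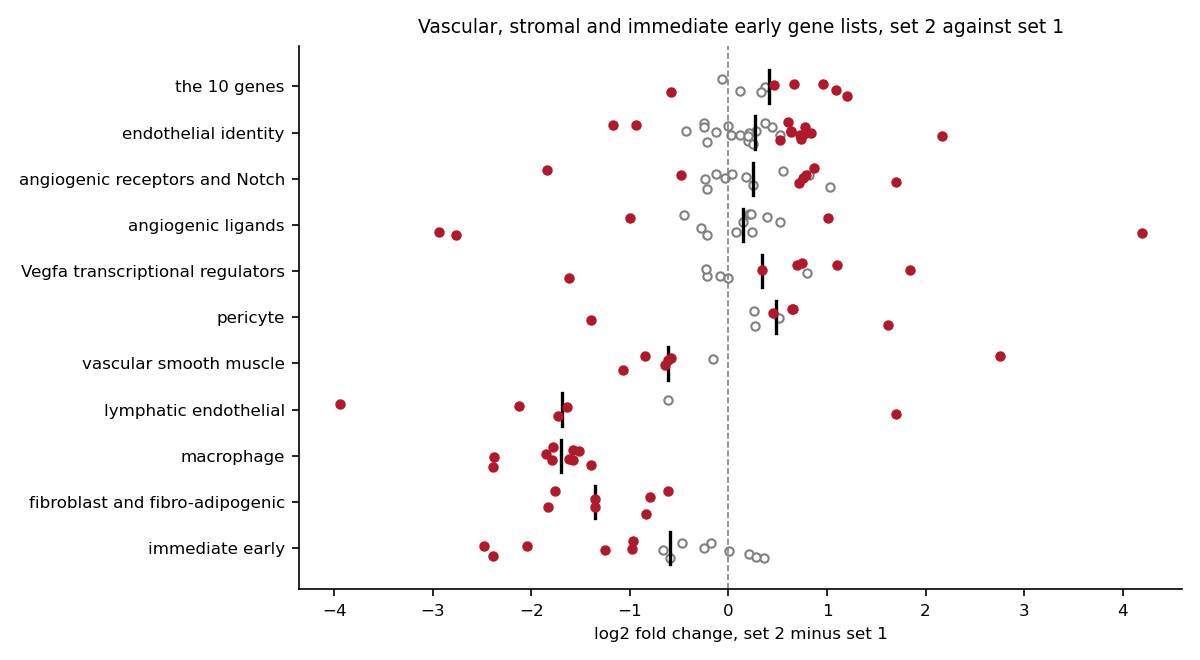
Log2 fold changes of single genes, set 2 minus set 1, by list, with filled red points for genes with an adjusted p under 0.05, open points for the others and a black bar at each list's median. The median is 0.41 for the 10 genes, 0.27 for endothelial identity and 0.49 for pericytes, and -1.69 for lymphatic, -1.70 for macrophage and -1.35 for fibroblast genes.

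Restriction against control addressed the study's own question, whether the dams' diet left a mark on old muscle. No gene of the 10 passed edgeR's test in any diet contrast, averaged over the sets or within a set. Averaged over the sets, the test called 0.00703% of all genes, which is 1 gene, and 2 of the 10 had an unadjusted p under 0.05 (Apold1 and Vegfa), where 7.83% of all genes did. DESeq2 called 1 of the 10, Apold1, among 55 of all genes, and limma-voom called 0.

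Apold1 encodes a membrane protein of endothelial cells whose transcript is known to rise quickly with stimuli such as hypoxia or injury, and it had the largest diet difference. It measured 6.24, 8.53 and 11.2 CPM in set 2 restriction libraries, against 11.4, 75.3 and 105 CPM in the controls of set 2. In set 1 it measured 5.99, 12.6 and 17.1 CPM in restriction libraries, against 17.5, 31.3 and 35.2 CPM in controls. Within each set every restriction library lay below every control, by a margin as small as 11.2 against 11.4 CPM in set 2 and 17.1 against 17.5 CPM in set 1. Groups separated in that direction for 5.72% of all genes in set 2 and 9.6% in set 1.

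The log2 fold change of Apold1 was -2.06 ± 0.41 averaged over the sets (SE; 95% interval -2.95 to -1.17), with an unadjusted p = 2e-04 that ranked 10 of 14225 and an adjusted p = 0.25. In set 2 it was -2.88 ± 0.60 (adjusted p = 0.41), and in set 1 -1.24 ± 0.57 (adjusted p = 0.65). The difference between the sets was -1.65 ± 0.81 and did not pass either (adjusted p = 0.54). In edgeR's fit with the filter on low counts the call turned on control 23. Without that library the mean effect was -2.31 (adjusted p = 0.0043) and that in set 2 was -3.38 (adjusted p = 0.011). Apold1 was also called for the mean over the sets by DESeq2 (-2.05, adjusted p = 0.013) and with no filter on low counts (-2.06, adjusted p = 0.023), and for set 2 by DESeq2 (-2.86, adjusted p = 0.023). Over the 12 fits that left out 1 library the adjusted p of the mean effect ran from 0.0043 to 0.65.

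The ratio of Apold1 to Cdh5 within a library gave a comparison free of scaling. The log2 ratio was -3.09, -3.02 and -2.68 in set 2 restriction libraries, against -1.91, 0.18 and 0.88 in set 2 controls. In set 1 it was -2.42, -0.76 and -0.62 in restriction libraries, against -0.37, -0.11 and 0.78 in controls. The groups did not overlap in either set, and the mean difference was -2.0 on the log2 scale. The exact two-sided permutation p was 0.005, the smallest possible, with an adjusted p = 0.03 over 6 ratios. That test took the libraries of both sets as independent. If same-numbered libraries come from the same rat, fewer arrangements are open and this p does not hold. No block by title number was run for the diet. Since Apold1 was the gene with the largest diet difference, this ratio repeats the pattern above in another form. On leaving out 1 library it stayed between -2.41 and -1.71. The adjusted p was above 0.05 without control 3, 8 or 9 (-2.12, -2.06 and -1.83), without restriction 12 (-1.72) and without restriction 32, 33 or 35 (-1.97, -1.98 and -2.07), at 0.06 to 0.18 by exact permutation. With 1 library left out there are fewer arrangements, which limits how small p can be. A lost call there does not by itself tell whether the difference rests on that library.

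The immediate early genes, which respond within minutes to many stimuli, were listed beside Apold1. Of 15 tested, 14 had values below 0 for restriction averaged over the sets, with a median of -0.84, and the counts were 15 of 15 in set 2 (median -1.06) and 12 of 15 in set 1 (median -0.50). None was called by edgeR in these 3 contrasts, while 10, 9 and 2 had an unadjusted p under 0.05, as had 7.83%, 8.59% and 7.54% of all genes. DESeq2 called 2, Btg2 and Egr3, for the mean and for set 2, limma-voom called 0, and edgeR without control 23 called Btg2 in both. Summed over the list, set 2 restriction libraries held 442 to 767 CPM against 677 to 1380 CPM in the controls of set 2, and set 1 restriction libraries 555 to 1150 CPM against 1200 to 1370 CPM in the controls of set 1. The sums overlapped in set 2, where control 23 held 677 CPM and the other controls 1200 and 1380 CPM, and did not overlap in set 1. In control 23 Egr1 was as high as in the other set 2 controls (53.1 against 53.2 and 45.1 CPM), while Klf2 was lower (18.6 against 175 and 127 CPM). Both genes were chosen after their values were seen.

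**Figure D5:**
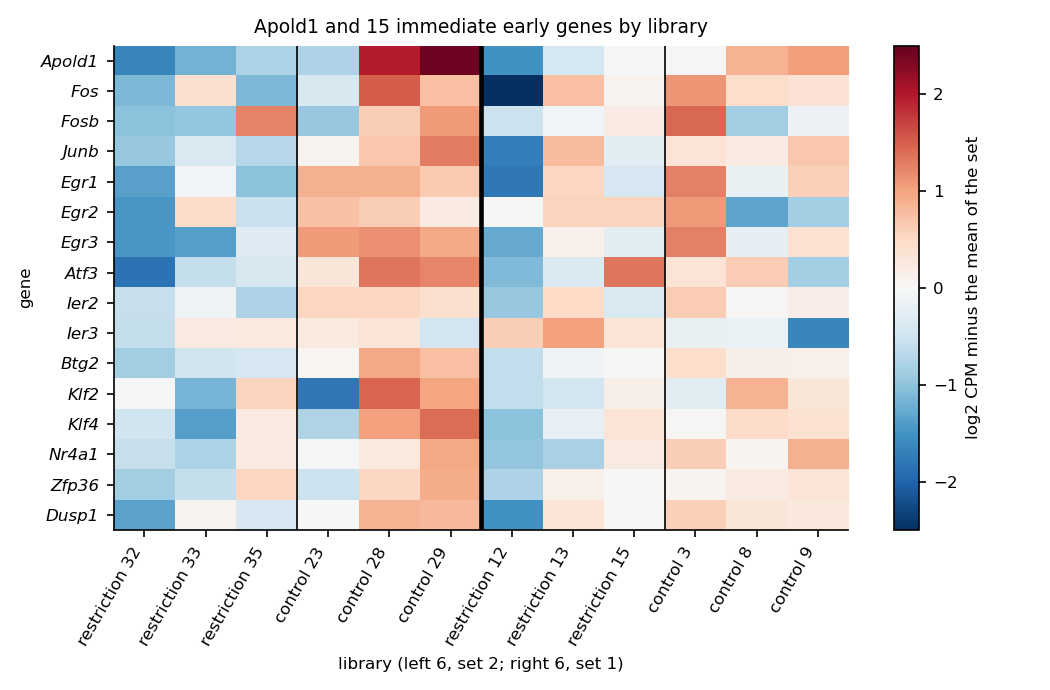
Log2 CPM of Apold1 and 15 immediate early genes in each library, minus the mean of the library's set; the left 6 columns are set 2 and the right 6 set 1, with restriction before control in each, red above and blue below the set mean. Apold1 is blue in the 3 set 2 restriction libraries and in control 23, where Klf2 and Klf4 are also blue and Egr1 is red.

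Red blood cell transcripts also moved with the diet in set 2. The sum of that list was 390 to 514 CPM in set 2 restriction libraries against 738 to 2450 CPM in the controls of set 2, the highest being control 23, while in set 1 the ranges overlapped at 572 to 872 CPM and 635 to 790 CPM. All 5 tested genes lay below 0 in set 2, with a median of -1.59 (-0.96 without control 23), and all 5 had an unadjusted p under 0.05 (8.59% of all genes), but edgeR called 0. DESeq2 called 2 in set 2, the haemoglobin genes Hba1 and Hbb, among 40 of all genes, and limma-voom called 0 of the list. Their part, and that of the immediate early genes, in the Apold1 difference was not tested.

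Vegfa was the next of the 10 by p in the mean over the sets, at -0.44 ± 0.16 (unadjusted p = 0.014; adjusted p = 0.53). The 119, 153 and 180 CPM of set 1 restriction libraries lay below the 248, 242 and 228 CPM of set 1 controls without overlap, as 9.6% of all genes did in this direction. In that set the log2 fold change was -0.67 ± 0.22 (adjusted p = 0.53), and edgeR called 0.00703% of all genes there and 0 of the 10, with 2 of the 10 at an unadjusted p under 0.05 (7.54% of all genes), and DESeq2 and limma-voom 0 of the 10. Fast fibre markers stood apart in set 1 too, with sums of 9470 to 11800 CPM in restriction libraries against 4060 to 7830 CPM in controls. Of 10 fast fibre genes 7 lay above 0 there and 3 below, and the list's median was 0.69 (1.07 without control 3). An unadjusted p under 0.05 was found for 6 of them, and none was called by edgeR, DESeq2 or limma-voom. Those 6 included Myh4, which went the other way at -3.47 ± 1.06. Esrra, a listed regulator of Vegfa named after its values were seen, was at -0.76 ± 0.20 (adjusted p = 0.51). The part of either in the Vegfa difference was not tested. In set 2 the 159 CPM of restriction 32 stood below the other set 2 libraries, which held 242 to 317 CPM. The fold change there was -0.21 ± 0.22 (adjusted p = 0.78), and it turned to 0.02 without restriction 32.

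In set 2 edgeR called 0% of all genes and 0 of the 10. Of the 10, 3 had an unadjusted p under 0.05 (Apold1, Tek and Pecam1), as had 8.59% of all genes. DESeq2 called Apold1 among 40 of all genes, and limma-voom called none of the 10. Tek was at 0.61 ± 0.25 (adjusted p = 0.55), its 14.7 to 17.5 CPM in restriction libraries lying above the 7.35 to 12.2 CPM in controls, a separation in this direction seen for 7.01% of all genes. Pecam1 was at -0.39 ± 0.18 (adjusted p = 0.58), with 59.4 to 81.7 CPM in restriction and 79.9 to 95.5 CPM in control libraries, which overlapped. For the difference in the diet effect between the sets, edgeR called 0% of all genes and 0 of the 10, DESeq2 and limma-voom 0 of the 10, and 3 of the 10 had an unadjusted p under 0.05, against 9.5% of all genes. These were Tek at 0.82 ± 0.35 (adjusted p = 0.5), Pecam1 at -0.56 ± 0.26 and Vegfb at -0.51 ± 0.23 (adjusted p = 0.52 each).

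For the other members the mean diet effect lay between -0.22 (Kdr) and 0.20 (Tek), with every adjusted p at 0.80 or more. The 95% interval was -0.20 to 0.48 for Cdh5, -0.39 to 0.16 for Pecam1, -0.24 to 0.43 for Vwf and -0.27 to 0.32 for Tie1. The wider lists gave no call by edgeR in the mean over the sets. Of 28 endothelial identity genes 5 had an unadjusted p under 0.05, of 15 ligands 2, of 17 receptors and Notch genes 2, of 11 Vegfa regulators 1, of 6 lymphatic and 8 pericyte genes 0, of 7 vascular smooth muscle genes 1 and of 10 macrophage genes 2, where 7.83% of all genes had. DESeq2 called Cldn5, the claudin of endothelial tight junctions, in the first of these lists and the Notch target Hes1 in the third, both lower. Over all genes DESeq2 called 55 in this contrast, and limma-voom called 0 in these lists. Cldn5, named after its values were seen, measured 20.2, 20.9 and 24.1 CPM in set 2 restriction libraries, against 22.2, 66.4 and 74.1 CPM in the controls of set 2. In set 1 it measured 23.1, 19.5 and 20.6 CPM in restriction libraries, against 16.7, 39.3 and 44.5 CPM in controls. As for Apold1, the lowest control of set 2 was control 23, and in set 1 control 3 was the lowest.

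Once the mean of each of the 4 groups was taken off, the spread between libraries was compared across genes, as a description over 12 libraries that share depth and scaling. The genes whose log2 CPM was most like that of Cdh5 were Ctnnb1 (Pearson r = 0.93), Rasa3 (0.92), Nr3c2 (0.91), Efnb2 (0.90) and Smg5 (0.89). For Vegfa they were Crk (0.93), Sos2 (0.92), Tpst1 (0.90), Trmt11 (0.90) and Ggps1 (0.89). For Apold1 they were Slc30a4 (0.98), Wasl (0.98), Jmjd1c (0.97), Cdk11b (0.97) and Fblim1 (0.96), with 0.87 to 0.93 once control 23 was left out. None of the other 9 members was among the 5 most like Cdh5, Vegfa or Apold1. Among the members themselves Cdh5 and Tek varied together (r = 0.84, and 0.80 without control 23), as did Pecam1 and Vwf (0.79 and 0.95). Cdh5 and Vwf were at 0.27 with control 23 and 0.78 without it. The members did not vary as one. Tie1 and Apold1 went opposite ways (-0.80, and -0.72 without control 23). Tek and Tie1 were at -0.35 and 0.02, and Cdh5 and Kdr at 0.05 and 0.37, with and without that library.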

How the data were processed

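Per the labels' protocols, total RNA was isolated with Trizol and sequenced from TruSeq RNA libraries, a kit without strand information. The authors' tools were Trimmomatic, HISAT2, featureCounts and DESeq2 and their build Rnor_6.0, per the submitters' processing notes; the versions are not stated there. The counts deposited by the authors are whole reads per gene for 12 libraries, with totals from 22829692 to 38313704; a second, normalized table was left out. Diets were read from the labels and sets from the title numbers.

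Low counts were removed by filterByExpr over the 4 groups. TMM-scaled counts were fitted in edgeR 4.0.16 (R 4.3.3), with 1 mean per group over all 12 libraries, quasi-likelihood tests, Benjamini-Hochberg adjustment over 14225 genes and a threshold of 0.05. CPM are counts per TMM-adjusted library size. Log2 ratios of counts had 0.5 added to each count and were tested by exact permutation within diet or set, adjusted over 6 ratios. Promoter sequences are from RefSeq (GRCr8). The fits were tested on simulated data. Replicates of a group differed beyond sampling noise (chi-square per degree of freedom between 21.6 and 127.4).

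The members, lists and tests were chosen with earlier results of these data known. Named from each list were up to 4 genes called between the sets with the smallest p and a mean CPM of at least 1, and, for Cdh5, Vegfa and Apold1, the 5 genes most like each; other names are given as chosen after their values were seen, or as called by an alternative. Alternatives were DESeq2 1.42.0, limma-voom (limma 3.58.1), DESeq2 size factors or library size alone, no filter, only 1 set, a pseudocount of 5 for ratios, a block by title number and the omission of each library. Counts of called genes per list under 2 other scalings, under DESeq2 and limma-voom, and without control 23 or control 3 were added after seeing the data. Transcript lengths were not used here, so levels are compared within a gene only.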

Additional observations from a re-analysis of the deposited data

How the results depend on the processing

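The 5 genes called between the sets besides Vegfa (Cdh5, Tek, Kdr, Flt1 and Vwf) were called in each of the 12 fits that left out 1 library, and the count of the 10 called there stayed at 5 to 6. The count over all genes ran from 4880 to 6450 between the sets, from 0 to 8 for the mean diet effect, from 1 to 22 in set 1, from 0 to 4 in set 2 and from 0 to 1 for the difference between sets; members called ran from 0 to 1 for the mean and for set 2, the 1 being Apold1 without control 23. With DESeq2 the 4 diet counts were 55, 38, 40 and 30, and with no filter on low counts 11, 6, 3 and 1, against 1, 1, 0 and 0; with limma-voom they were 0 for the mean and 3 in set 1, and with the set 1 libraries alone 5. DESeq2 called 1 member for the mean and 1 for set 2, and no filter 1 for the mean, Apold1 in each case. The cause was not tested.

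The title numbers differ by 20 between the sets, but the deviations of same-numbered libraries correlated at only 0.079 to 0.175, over 0.1 in 4 of 6 pairs, so they were not taken as pairs. As a hint from the data, 12 of 12 libraries were closest to their own number within a diet. The other pairs of libraries within a diet correlated at -0.148 to 0.025, so pairing stays possible. With the replicate block 7 members were called between the sets, Tie1 (0.33, adjusted p = 0.032) in addition, with 5802 genes over the table, and 0 of each for the difference between sets. The 6 ratios under the block, by sign flips over 6 pairs with a smallest p of 0.031, each had an adjusted p = 0.12 by this exact permutation test, Cdh5 to Pecam1 at 1.10 included.

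Leaving out 1 library, ratios ran for the diet from -2.41 to -1.71 (Apold1 to Cdh5), -0.034 to 0.313 (Flt1 to Kdr) and -0.013 to 0.316 (Tek to Tie1), and between the sets from 1.03 to 1.19 (Cdh5 to Pecam1), 0.63 to 0.96 (Tek to Tie1) and 0.39 to 0.62 (Vegfa to Vegfb). Uncalled log2 fold changes that turned sign on leaving out 1 library were, in set 1, those of Cdh5 (-0.11 to 0.30), Flt1 (-0.27 to 0.11), Kdr (-0.185 to 0.037) and Tie1 (-0.048 to 0.216), in set 2 those of Flt1 (-0.362 to 0.055), Tie1 (-0.16 to 0.14), Vegfa (-0.420 to 0.022) and Vwf (-0.21 to 0.20), in the mean those of Flt1 (-0.199 to 0.011), Tie1 (-0.042 to 0.113) and Vegfb (-0.129 to 0.022), and for the difference between sets those of Cdh5 (-0.07 to 0.34), Flt1 (-0.33 to 0.15) and Tie1 (-0.255 to 0.056). Library size alone turned Tie1 (0.086) and Vwf (0.104) in set 2 and Tie1 (0.003) in the difference between sets, and limma-voom turned Flt1 in set 1 (0.011) and Vwf in set 2 (0.002).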
